A study of Homo sapiens with 24 samples.

Results

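Interferon-stimulated genes are the effectors that a cell switches on when it senses interferon or foreign nucleic acid. The 40 genes described here are such genes, taken by symbol from a list and found in all 4 deposited tables, among 58174 genes in all. The rule used the symbol and no measured value, but the members were chosen with earlier results of these data known. They were measured by sequencing of total RNA, depleted of ribosomal RNA, in 4 human tumour lines: the lung adenocarcinoma line A549, the ovarian carcinoma line ES2, the melanoma line MV3, and PANC1, from a pancreatic ductal adenocarcinoma. In each line 3 libraries came from cells given a control siRNA (siC, made after a nematode miRNA) and 3 from cells given a pool of siRNAs against IGF2BP1 (siI1), an RNA-binding protein of embryonic and tumour cells. RNA was taken 72 h after transfection, and after 96 h in PANC1. Every library therefore carried a transfected siRNA, and neither untransfected cells nor cells given interferon were analysed here.

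Type I interferons bind the receptor IFNAR1/IFNAR2, and the kinases JAK1 and TYK2 then phosphorylate STAT proteins, STAT2 among them. STAT2 and IRF9 are subunits of the complex ISGF3, which binds the interferon-stimulated response element (ISRE) in the promoters of its target genes. Many members also keep a basal level in cultured tumour cells without added interferon. The members were ordered by role: RNA sensors (DDX58, IFIH1, DDX60), IFIT proteins that bind viral RNA, the OAS enzymes that sense double-stranded RNA, the MX GTPases, the ubiquitin-like ISG15 with its enzymes, transcription factors, IFITM proteins and BST2 of the membrane, the IFI genes, PARP9 and PARP14, and 8 other effectors.

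The ISRE is written here as GAAANNGAAA, searched on both strands from 250 bases before to 50 bases after the RefSeq start sites of GRCh38.p14. Of the 40 members, 32 had a promoter in that table, and IFIT2, OAS2, OASL, MX2, USP18, IRF7, IFITM2 and TRIM22 had none. The motif was present in 22 of the 32 (68.8%), against 4.38% of 27305 genes and 3.57% of 35116 promoters. DDX58, OAS1, HERC6, STAT2, IRF1, IRF9, IFI35, CMPK2, SAMD9L and XAF1 had a promoter without these letters. The matches nearest to the start site in 7 members past the threshold in at least 1 line are shown as examples of the element, 5′ to 3′ on the strand of the gene. Capitals mark only this nearest match, as the motif or, where it lies on the other strand, as its reverse complement TTTCNNTTTC. Further matches in the stretches of IFIT1, ISG15 and IFITM3 are left wholly or partly in small letters.
IFIT1, chr10:89392500-89392549, plus strand: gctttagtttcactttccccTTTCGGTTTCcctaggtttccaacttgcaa
OAS3, chr12:112938442-112938491, plus strand: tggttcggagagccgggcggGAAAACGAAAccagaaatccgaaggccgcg
ISG15, chr1:1013370-1013419, plus strand: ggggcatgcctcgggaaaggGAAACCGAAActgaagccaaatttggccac
IFITM1, chr11:314014-314063, plus strand: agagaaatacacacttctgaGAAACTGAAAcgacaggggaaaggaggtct
IFITM3, chr11:320866-320915, minus strand: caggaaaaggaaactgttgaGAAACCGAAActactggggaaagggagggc
EIF2AK2, chr2:37156957-37157006, minus strand: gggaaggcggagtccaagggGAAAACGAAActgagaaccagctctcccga
SAMD9, chr7:93118086-93118135, minus strand: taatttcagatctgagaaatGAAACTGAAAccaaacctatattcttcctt

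Several members lie beside each other in the genome (hg38, GENCODE release 44, positions of the whole gene). The IFIT genes occupy chromosome 10, with IFIT2 from 89283694 to 89309271, IFIT3 from 89327307 to 89377473, IFIT1 from 89392546 to 89406487 and IFIT5 from 89414568 to 89421605. IFITM2 (303655 to 309397), IFITM1 (310041 to 315272) and IFITM3 (319676 to 329475) stand within one stretch of chromosome 11. SAMD9 (93099513 to 93118023) and SAMD9L (93130056 to 93148385) are neighbours on chromosome 7. OAS3 lies at 112938051 to 112976460 of chromosome 12, between OAS1 and OAS2. STAT2 lies at 56341597 to 56360203 of chromosome 12, and DDX58 at 32455302 to 32526208 of chromosome 9. Where a 76-base word of a member's transcripts also occurs in another gene of the deposited tables, its reads can be assigned to the wrong gene. This applied to 14.4% of the words of IFITM1, 13.3% of those of IFITM2 and 11.1% of those of IFITM3, which share them with each other. It also applied to 17.1% in IRF9, shared with a read-through gene, 13.2% in IFI6, shared with LINC02574, and 8.99% in USP18, shared with its near copy USP41. The share was 7.42% in IFIT2 and 5.68% in TRIM22, and the levels of these 8 genes are less certain. With every gene of release 44 counted, read-through genes took the share to 41.5% in DDX58 (0.113% within the tables) and 22.9% in IFITM1, and USP18 reached 18.7%. The counting strand is not given in the sources used here, so reads of XAF1, of whose exon bases 38.3% are covered by exons of the opposite-strand gene PRAL, and of IRF1, with 26.8% covered, could include those of the partner.

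The depth per library was 3105215 to 4553326 assigned reads in A549, 6532175 to 8472851 in PANC1, 6421764 to 8419467 in ES2 and 15572492 to 20082702 in MV3. IGF2BP1 mRNA fell in every line, from 39.7 ± 0.0742 to 15.6 ± 0.674 FPKM in A549 (fragments per kilobase of gene length, scaled to library size; SD, n = 3 and 3), and by 1.83 on the log2 scale in PANC1. Of the epithelial keratins, KRT8 stood at 512 FPKM in A549 siC and 717 FPKM in PANC1 siC, and KRT7 at 104 FPKM in ES2 siC. The lineage markers NKX2-1, SFTPB and SFTPC had no read in A549, MUC16 had none in ES2, and SOX10, TYR, DCT and S100B had none in MV3. Of 7 genes of blood and vessel cells, 6 had a mean of at most 0.327 FPKM in each of the 8 groups. CD14 stood at 2.48 FPKM in siC and 4.54 FPKM in siI1 of A549.

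Basal levels were highest in A549. In siC cells the median over the 40 members was 6.62 FPKM in A549, 3.87 in MV3, 1.98 in PANC1 and 1.72 in ES2. A549 had the highest siC mean for 29 members, in 28 of them with no overlap with a siC library of another line. MV3 was highest for 7 members, 5 without overlap, PANC1 for 3 and ES2 for 1. How often each line was highest, or free of overlap, over all genes was not counted, so these orders do not set the members apart. The tables of the 4 lines were normalised separately, so the orders are descriptions and were not tested. In such bulk samples a gene expressed in fewer cells and one with less RNA per cell cannot be told apart.

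Single members departed widely from this order. IFI6, a mitochondrial protein, reached 369 ± 85.5 FPKM in A549 siC, the highest mean of any member, and 5.40 to 17.4 FPKM in the other lines. BST2 (tetherin), which holds budding virions at the cell surface, stood at 125 ± 3.28 FPKM in MV3 siC, at 1.5 FPKM in A549, at 0.915 FPKM in PANC1 and without a read in siC of ES2. MX2, a nuclear GTPase against retroviruses, was at 2.91 FPKM in PANC1 and at most 0.117 FPKM elsewhere, whereas its paralog MX1 was at 15.2 FPKM in A549 and under 0.5 FPKM in the other lines. IFI44 was at 24.8 FPKM in ES2, 18.6 in MV3 and 16.1 in A549, and at 0.158 FPKM in PANC1. The order of ISG20, IRF1 and SAMD9 between the highest line and the next rested on overlapping libraries.

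**Figure D1:**
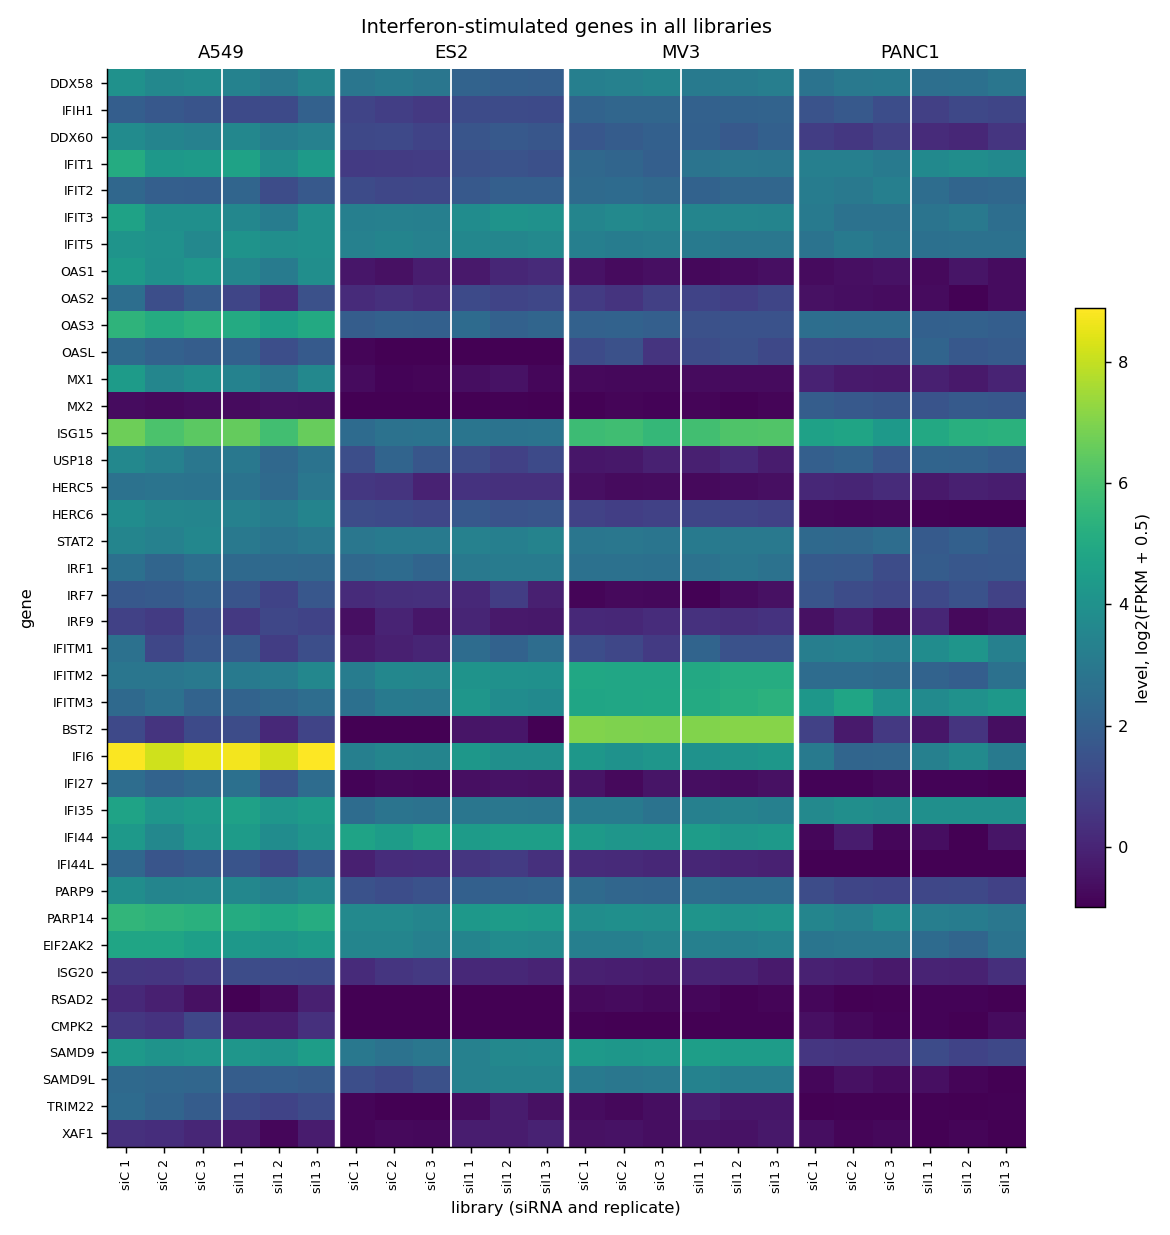
Levels of the 40 members, as log2(FPKM + 0.5), in the 24 libraries (columns, by line, siRNA and replicate; rows are genes in order of role). A549 columns are the brightest for most rows, BST2 stands out in MV3 and MX2 in PANC1.

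A member was tested in a line where its mean over the 6 libraries reached 0.5 FPKM. A549 had 37 such members, ES2 had 29, MV3 28 and PANC1 25. In all 4 lines 20 members could be tested, and RSAD2 (viperin) and XAF1 in none. RSAD2 had 33 reads each in A549 and MV3, 5 in PANC1 and none in ES2, so a change of it was not detectable at this depth. A further 13 members were tested in at least 1 line and passed the threshold in none: OAS1, MX1, MX2, USP18, HERC5, IRF7, IRF9, BST2, IFI27, IFI44, IFI44L, ISG20 and CMPK2. The other 25 members passed in at least 1 line, 14 of them in exactly 1 line, 7 in 2 lines and 4 in at least 3 lines. Such counts over lines were not made for all genes, so they do not set the members apart. None passed in the same direction in all 4 lines. Fold changes are siI1 against siC on the log2(FPKM + 0.5) scale, which understates those of low genes, and adjusted p-values are limma's, over all genes tested in the line.

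In ES2 most of the tested members were higher after knockdown. Of 29 members tested 16 rose and 1 fell, where 10.5% of all 16920 tested genes rose and 13.0% fell. IFITM1, among the 16, entered the test only through its siI1 libraries, and it also counts in the median and the means that follow. The median log2 fold change of the members was 0.42, and that of all tested genes -0.02. The mean log2 level of the members, relative to siC, was -0.05 to 0.05 in the 3 siC libraries and 0.46 to 0.48 in the 3 siI1 libraries. The 2 ranges did not overlap.

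IFITM1, which blocks entry of enveloped viruses at the plasma membrane, had the highest fold change in ES2. It stood at 0.288, 0.423 and 0.513 FPKM in siC and at 5.12, 3.85 and 5.26 FPKM in siI1, a log2 fold change of 2.53 ± 0.17 (SE; 95% interval 2.12 to 2.94, adjusted p = 0.000371). Reads per library ranged from 2 to 48, and the gene entered the test only through its siI1 libraries. Its neighbour IFITM3, the endosomal member of the family, was at 5.78, 7.80 and 7.51 FPKM in siC and 17.7, 13.5 and 12.4 FPKM in siI1 (log2 fold change 0.99 ± 0.16, adjusted p = 0.00762). IFITM2 rose as well, from 10.3 ± 1.68 to 15.5 ± 0.63 FPKM (adjusted p = 0.0166), and passed no longer without siI1 replicate 1 (adjusted p = 0.0564) or siI1 replicate 2 (0.0533).

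SAMD9L, a cytosolic restriction factor against poxviruses, was at 2.07, 1.69 and 2.20 FPKM in siC of ES2. It was at 9.72, 10.6 and 10.6 FPKM in siI1 (log2 fold change 2.12 ± 0.10, adjusted p = 0.000127), and the groups were far apart. Its neighbour and paralog SAMD9 went from 7.25, 6.18 and 7.04 FPKM to 9.69, 11.7 and 12.4 FPKM (0.68 ± 0.11, adjusted p = 0.00671).

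All 4 IFIT genes were tested in ES2, and 3 of them rose. IFIT1, which binds RNA lacking the methylated cap of the host, was at 1.11, 1.16 and 1.20 FPKM in siC and 2.25, 2.41 and 2.18 FPKM in siI1 (0.75 ± 0.11, adjusted p = 0.00535). IFIT2 and IFIT3, its binding partners, had log2 fold changes of 0.74 ± 0.11 and 0.69 ± 0.08. IFIT5 had 0.20 ± 0.06 and did not pass (adjusted p = 0.0562). Both PARP genes, whose products attach or bind ADP-ribose, rose: PARP14 from 11.7 ± 0.79 to 19.7 ± 1.15 FPKM and PARP9 from 2.22 ± 0.18 to 3.70 ± 0.16 FPKM.

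Among the transcription factors in ES2, IRF1, itself an activator of ISRE genes, rose from 4.53 ± 0.47 to 7.90 ± 0.41 FPKM (adjusted p = 0.00263). STAT2 was at 7.11, 7.78 and 7.69 FPKM in siC and at 9.67, 9.22 and 10.1 FPKM in siI1 (0.34 ± 0.06, adjusted p = 0.0123). STAT2 did not pass without siI1 replicate 3 (adjusted p = 0.0521). IRF7 had a log2 fold change of -0.04 ± 0.28, and IRF9 was too low to test. The 4 further members that rose were OAS2, an oligoadenylate synthetase, with 0.84 ± 0.15, IFI6 with 0.61 ± 0.11, the helicase DDX60 with 0.57 ± 0.11 and the ubiquitin ligase HERC6 with 0.41 ± 0.11. DDX60 did not pass without siI1 replicate 2 (adjusted p = 0.0535).

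HERC6 was at 1.96, 1.82 and 1.65 FPKM in siC and 2.77, 2.39 and 2.51 FPKM in siI1 (adjusted p = 0.0419). Its groups did not overlap, and yet it failed to pass in each of 6 fits on 5 libraries, with adjusted p from 0.0636 to 0.122. ISG15 had 0.14 ± 0.10 (adjusted p = 0.356) and rested on 30 to 51 reads per library.

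DDX58, the cytosolic RNA sensor RIG-I, was the only member that fell in ES2. It stood at 6.80, 7.60 and 6.94 FPKM in siC and at 3.87, 3.60 and 3.51 FPKM in siI1 (log2 fold change -0.87 ± 0.08, adjusted p = 0.000865), and passed in every fit on 5 of the 6 libraries. The related sensor IFIH1 (MDA5) had 0.41 ± 0.14 in the opposite direction and did not pass (adjusted p = 0.0784).

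**Figure D2:**
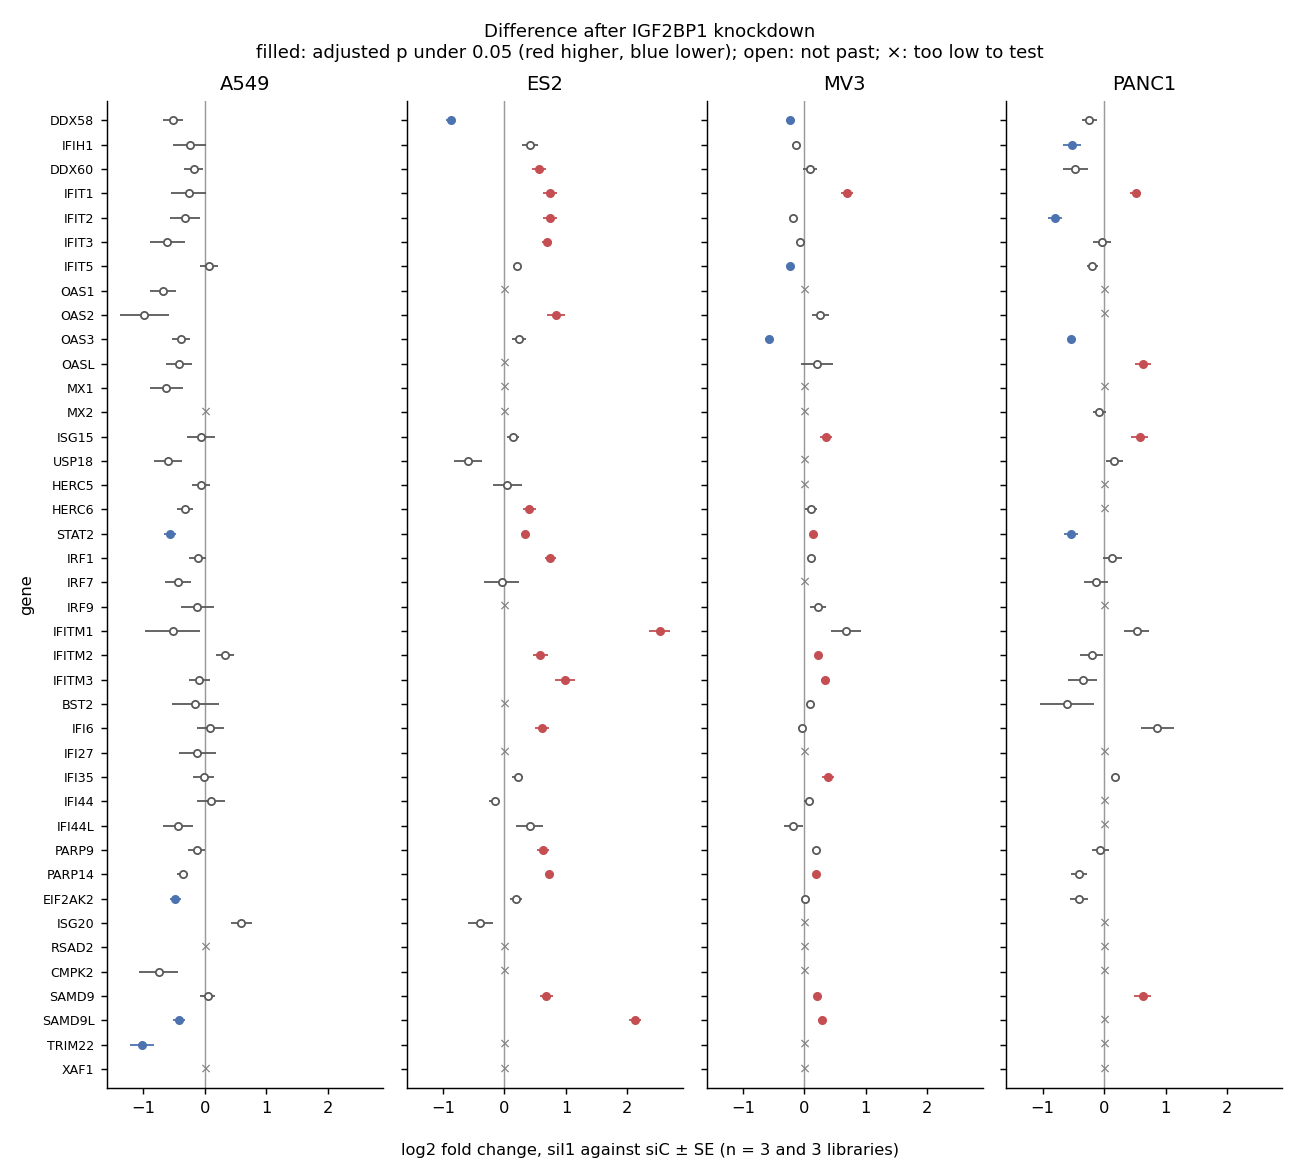
Log2 fold change of each member in each line, siI1 against siC, with its SE (3 and 3 libraries). Filled points passed an adjusted p of 0.05, and crosses mark members too low to test. ES2 has 16 filled points to the right of 0, and A549 has 4 to the left and none to the right.

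In MV3, the most deeply sequenced line, changes were smaller. Of 28 members tested 9 rose and 3 fell, where 16.3% of all 16380 tested genes rose and 19.5% fell. The median log2 fold change was 0.13, against 0.01 over all tested genes. The mean log2 level relative to siC was -0.04 to 0.03 in siC libraries and 0.10 to 0.12 in siI1 libraries, again without overlap.

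IFIT1 had the highest fold change among members past the threshold in MV3, with 4.57, 4.20 and 3.44 FPKM in siC and 6.53, 7.09 and 6.85 FPKM in siI1 (0.69 ± 0.10, adjusted p = 0.00272). The other IFIT genes had values below 0. IFIT2 had -0.18 ± 0.07 (adjusted p = 0.0776), IFIT3 -0.07 ± 0.05 (adjusted p = 0.293), and IFIT5 fell, from 9.20, 8.25 and 8.97 FPKM to 7.93, 7.10 and 7.14 FPKM (-0.24 ± 0.06, adjusted p = 0.027). IFI35, which takes part in immune signalling with NMI, was at 7.71, 7.92 and 6.26 FPKM in siC and 9.36, 10.3 and 9.34 FPKM in siI1 (0.39 ± 0.09, adjusted p = 0.02).

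ISG15, the ubiquitin-like protein that is joined to newly made proteins, was at 54.5, 56.8 and 47.4 FPKM in siC of MV3. It was at 59.3, 71.2 and 72.2 FPKM in siI1 (0.35 ± 0.10, adjusted p = 0.0352), and the lowest siI1 library lay close above the highest siC library. IFITM3 rose from 28.4 ± 0.79 to 36.2 ± 3.64 FPKM (adjusted p = 0.0132) and IFITM2 from 28.4 ± 0.42 to 33.1 ± 2.05 FPKM (adjusted p = 0.0157). IFITM1, at 19 to 87 reads per library, had 0.68 ± 0.24 and did not pass (adjusted p = 0.0757).

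SAMD9 was at 19.4, 18.1 and 19.4 FPKM in siC of MV3 and at 22.6, 21.8 and 21.6 FPKM in siI1 (0.21 ± 0.04, adjusted p = 0.00797). SAMD9L was at 7.61, 6.99 and 7.37 FPKM in siC and 9.95, 8.71 and 8.65 FPKM in siI1 (0.29 ± 0.07, adjusted p = 0.0153). The groups did not overlap in either gene, which adds no support beyond the test on the same libraries. The value for SAMD9L was 2.12 in ES2, and this difference between the lines was not tested, since the gene was too low in PANC1. PARP14 rose by 0.19 ± 0.04. STAT2 was at 6.79, 7.03 and 6.61 FPKM in siC and at 7.81, 7.42 and 7.55 FPKM in siI1 (0.15 ± 0.04, adjusted p = 0.0383), and did not pass in any fit on 5 of the 6 libraries, where the adjusted p was 0.0573 to 0.107.

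OAS3, the longest oligoadenylate synthetase, fell in MV3 from 3.70, 3.80 and 3.50 FPKM to 2.25, 2.33 and 2.30 FPKM (-0.58 ± 0.06, adjusted p = 0.000856). DDX58 fell as in ES2, here from 9.11, 9.67 and 10.6 FPKM to 7.83, 8.06 and 8.88 FPKM (-0.23 ± 0.07, adjusted p = 0.0453). The falls of DDX58 and IFIT5 each passed in 2 of the 6 fits on 5 libraries, with adjusted p of up to 0.123 and 0.0862. Without siI1 replicate 2 of MV3, 5 members were higher and 1 was lower, and without siC replicate 3 the number lower was also 1. ISG15 passed in 2 of the 6 fits, IFITM2 in 3 (adjusted p of up to 0.0544), and IFI35 and SAMD9L in 5.

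In PANC1 equal numbers moved each way. Of 25 members tested 4 rose and 4 fell, where 11.3% of all 15846 tested genes rose and 13.4% fell. The median log2 fold change was -0.13, against -0.04 over all tested genes, and -0.0091 without siC replicate 1. The mean log2 level relative to siC was -0.06 to 0.07 in siC libraries and -0.09 to -0.0005 in siI1 libraries, and these overlapped. In this line the RNA of the signal recognition particle (7SL) took 9.15% to 13.5% of the reads in siC and 19.04% to 22.6% in siI1, and its part in the results was not tested. With every library scaled to the same sum of reads 3 members were higher and 7 lower, the members' median was -0.26 and that of all tested genes -0.18.

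The members that rose in PANC1 were IFIT1, ISG15, OASL and SAMD9. IFIT1 was at 9.21, 9.22 and 7.95 FPKM in siC and 12.3, 13.7 and 12.2 FPKM in siI1 (0.51 ± 0.08, adjusted p = 0.008). OASL, an OAS protein without synthetase activity, was steady at 1.94, 1.90 and 1.93 FPKM in siC and at 3.99, 2.84 and 3.05 FPKM in siI1 (0.63 ± 0.13, adjusted p = 0.0177). ISG15 was at 24.3, 26.9 and 19.9 FPKM in siC and at 30.6, 36.7 and 39.6 FPKM in siI1 (0.58 ± 0.14, adjusted p = 0.0269). SAMD9 was low, at 0.973, 0.891 and 0.903 FPKM in siC and 1.92, 1.48 and 1.70 FPKM in siI1 (0.62 ± 0.15, adjusted p = 0.0246), and its neighbour SAMD9L was too low to test, with 31 reads over the 6 libraries. All 4 genes had siI1 libraries above every siC library, but they were picked by the test on these same libraries, so this adds no support.

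The members that fell in PANC1 were IFIT2, STAT2, OAS3 and IFIH1. IFIT2, whose gene lies in the same cluster as IFIT1, went the other way, from 8.47, 7.54 and 9.21 FPKM to 5.24, 4.18 and 4.46 FPKM (-0.80 ± 0.11, adjusted p = 0.00445). STAT2 was at 4.64, 4.50 and 5.26 FPKM in siC and 3.02, 3.59 and 2.86 FPKM in siI1 (-0.54 ± 0.11, adjusted p = 0.0154). OAS3 was at 5.42, 5.28 and 5.31 FPKM in siC and 3.56, 3.69 and 3.32 FPKM in siI1 (-0.54 ± 0.07, adjusted p = 0.00421). IFIH1 fell from 2.42 ± 0.40 to 1.53 ± 0.19 FPKM (adjusted p = 0.0446). The siI1 libraries of these 4 genes all lay below their siC libraries, which again adds no support beyond the test.

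Several of the PANC1 calls were lost when 1 library was left out. IFIT1, IFIT2 and OAS3 passed in all 6 fits on 5 libraries, STAT2 in 5, OASL in 4, ISG15 in 2, and SAMD9 and IFIH1 in 1 each. Without siC replicate 3 of PANC1, 1 member was higher, and without siC replicate 1, 2 were. Without siI1 replicate 1, 2 members were lower. IFI6 had the highest fold change of any tested member in PANC1, at 0.86 ± 0.27, but did not pass (adjusted p = 0.0603) and rested on 31 to 67 reads per library.

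In A549, where basal levels were highest, no member rose. Of 37 members tested 4 fell, where 5.93% of all 18411 tested genes rose and 7.83% fell, so the share of members lower was 10.8%. At an unadjusted p under 0.05 (limma), 1 member was higher and 11 were lower, and the share of all genes at this level was not counted. The median log2 fold change was -0.32, against -0.01 over all tested genes, and 31 of the 37 values were negative. The members' median was -0.18 without siC replicate 1 and -0.21 without siI1 replicate 2.

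TRIM22, an antiviral ubiquitin ligase, had the lowest fold change past the threshold in A549, with 5.01, 4.01 and 3.18 FPKM in siC and 1.81, 1.46 and 1.92 FPKM in siI1 (-1.02 ± 0.19, adjusted p = 0.019). STAT2 was at 10.9, 9.63 and 11.4 FPKM in siC and 7.53, 6.30 and 7.30 FPKM in siI1 (-0.56 ± 0.10, adjusted p = 0.0175). EIF2AK2, the kinase PKR that halts translation on double-stranded RNA, was at 27.1, 27.4 and 23.6 FPKM in siC and 18.5, 17.0 and 20.2 FPKM in siI1 (-0.48 ± 0.09, adjusted p = 0.02). SAMD9L was at 4.67, 4.40 and 4.32 FPKM in siC and 3.22, 3.36 and 3.05 FPKM in siI1 (-0.42 ± 0.10, adjusted p = 0.0403). In all 4 genes the siI1 libraries lay below the siC libraries, but the test that picked them used these libraries, so this adds no support.

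The mean log2 level of the members was more spread over the replicates of A549 than over those of the other lines. Relative to siC, it was 0.21 in siC replicate 1 and -0.17 in siC replicate 2, and -0.56 in siI1 replicate 2 against -0.18 and -0.12 in the other siI1 libraries. The ranges of siC and siI1 thus overlapped in A549. IFIT1 showed this spread, with 33.3, 18.7 and 20.2 FPKM in siC and 25.3, 13.9 and 20.6 FPKM in siI1 (-0.26 ± 0.29, adjusted p = 0.618). IFITM1, OAS2, IFIT3 and MX1 had log2 fold changes of -0.52 ± 0.45, -0.98 ± 0.40, -0.60 ± 0.29 and -0.62 ± 0.27, none past the threshold. SAMD9 was at 19.9, 16.4 and 17.8 FPKM in siC and 17.8, 16.5 and 22.0 FPKM in siI1 (0.05 ± 0.13, adjusted p = 0.851). Without siC replicate 1, or without siI1 replicate 2, no member passed, and STAT2 then had an adjusted p of 0.0669 and 0.051. TRIM22 had 0.0598 and 0.0617, EIF2AK2 0.074 and 0.0624, and SAMD9L 0.129 and 0.0861. Of all 6 fits on 5 libraries, STAT2 passed in 3, TRIM22 and EIF2AK2 in 2 each and SAMD9L in none. A test that weighs each gene by its reads (limma voom) called 16 members lower and 1 higher in A549. The share of all genes that it called was not counted.

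**Figure D3:**
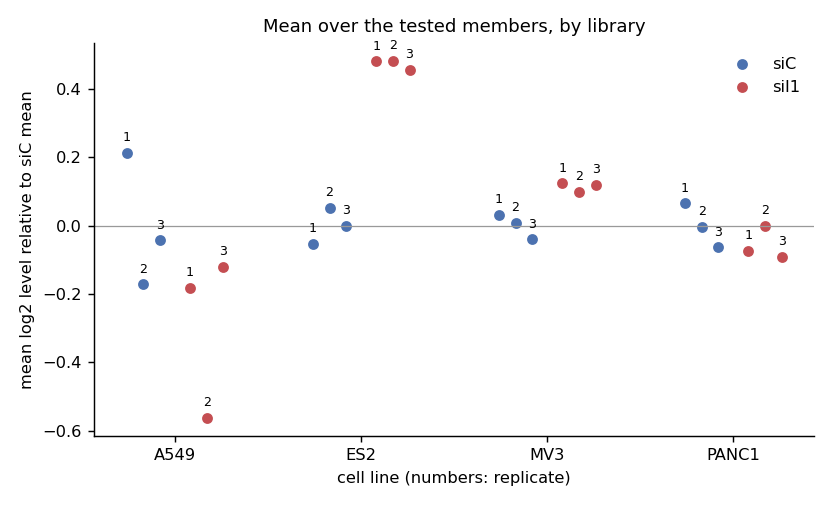
Mean log2 level of the members tested in a line, relative to the mean of its siC libraries, for each of the 24 libraries (points, with the replicate number above). The siI1 libraries of ES2 lie at 0.46 to 0.48, apart from its siC libraries, while siC and siI1 libraries overlap in PANC1 and A549. In A549, siC replicate 1 at 0.21 and siI1 replicate 2 at -0.56 lie apart from the rest.

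**Figure D4:**
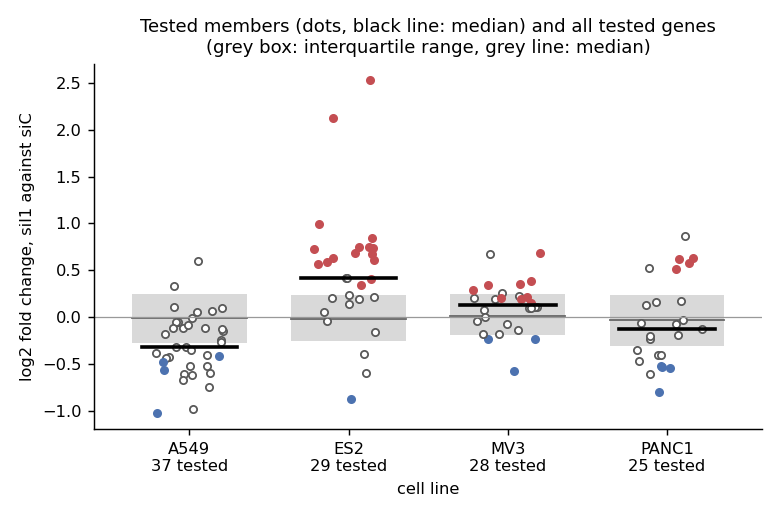
Log2 fold changes of the tested members in each line (points, red higher and blue lower past the threshold, open not past, black line their median), with the interquartile range and the median of all tested genes in grey. The members' median is 0.42 in ES2, above the grey box, and -0.32 in A549, below it.

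Across the 4 lines, IFIT1, STAT2, SAMD9 and SAMD9L were past the threshold in at least 3. IFIT1 and SAMD9 rose in ES2, MV3 and PANC1. STAT2 was past in all 4 lines, but higher in ES2 and MV3 and lower in A549 and PANC1. SAMD9L was higher in ES2 and MV3 and lower in A549. With IFIT2, higher in ES2 and lower in PANC1, these were the 3 members that passed in both directions. Higher in at least 2 lines were 8 members, namely these 4 with ISG15, IFITM2, IFITM3 and PARP14, and lower in at least 2 lines were DDX58, OAS3 and STAT2. In the promoter sequences above, IFIT1 and SAMD9 held the motif, and STAT2 and SAMD9L did not. Of the other members lower in at least 2 lines, OAS3 held it and DDX58 did not. A link between motif and direction was not tested.

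**Figure D5:**
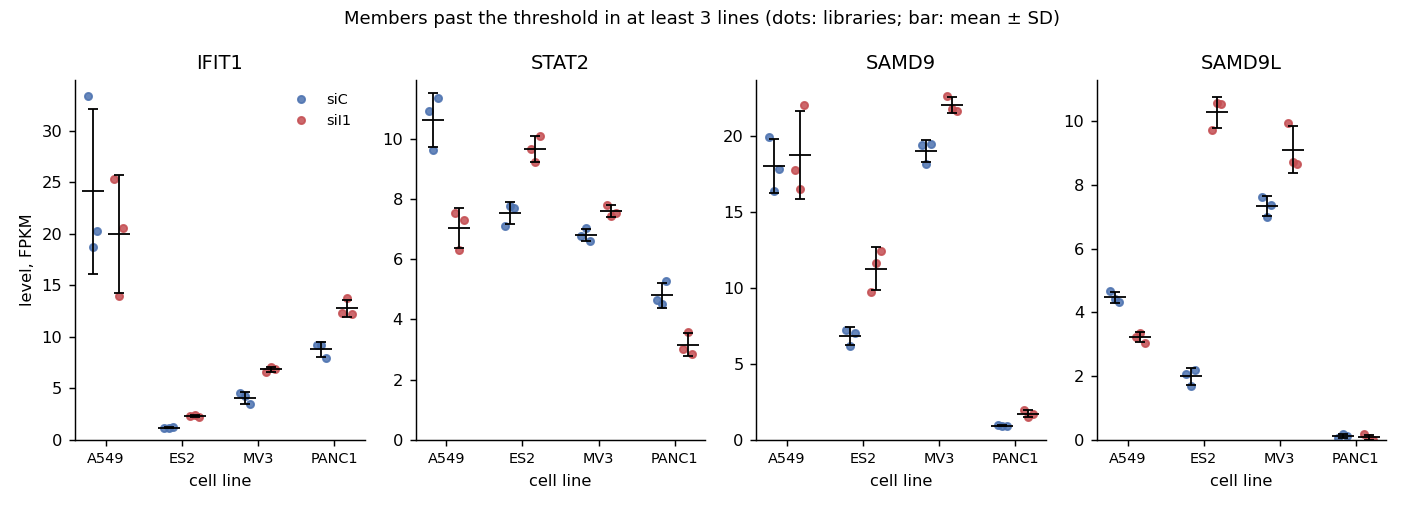
FPKM of IFIT1, STAT2, SAMD9 and SAMD9L in each library of the 4 lines (points; blue siC, red siI1; bars are mean and SD of 3 libraries). STAT2 is lower after knockdown in A549 and PANC1 and higher in ES2 and MV3. SAMD9L goes from about 2 to about 10 FPKM in ES2.

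Whether the effect of the knockdown itself differed between lines was tested for the 20 members measured in all 4, in one fit over the 24 libraries. The effect differed for 17 of the 20, where 45.0% of 12816 genes so tested differed. STAT2 had the smallest adjusted p (3.82e-06), with fold changes from -0.56 in A549 to 0.34 in ES2, followed by PARP14 (4.37e-06), from -0.41 in PANC1 to 0.73 in ES2. ES2 had the highest value for 16 of the 17 genes and the lowest for DDX58. How often ES2 was highest among all genes that differed was not counted. For ISG15 (adjusted p = 0.145), IFI6 (0.0541) and IFI35 (0.273) a difference was not shown. Line and time of harvest cannot be told apart for PANC1.

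A wider list of 108 genes of the pathway was read beside the members, from ligands to further induced genes. Of 67 tested in A549, 2 were higher and 14 lower past the threshold. In ES2 it was 18 and 3 of 66, in MV3 22 and 7 of 64, and in PANC1 8 and 13 of 58. The shares for all genes are those given above for each line. The median log2 fold changes of the list were -0.15, 0.17, 0.08 and 0.00 in that order of lines.

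Ligand genes were nearly silent. Of 22 interferon genes 16 had no read in any of the 24 libraries, IFNG and 12 of the 13 IFNA genes among them. IFNA5 had 1 read in all, IFNB1 3, IFNL1 5, IFNL2 1 and IFNL3 2. The exception was IFNE, the interferon of epithelia, with 405 reads over the A549 libraries, 603 in MV3, 34 in ES2 and 13 in PANC1. In A549 IFNE fell from 14.3 ± 2.90 to 8.69 ± 0.44 FPKM (-0.67 ± 0.15, adjusted p = 0.0364).

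Of 6 receptor genes, 5 tested in ES2, 3 rose there and 1 fell. In MV3 2 rose, and 1 fell in each of A549 and PANC1. IFNAR1, the receptor chain that recruits TYK2, was the one that fell. It went from 10.1 ± 1.12 to 5.60 ± 0.52 FPKM in A549 (-0.80 ± 0.11, adjusted p = 0.00757), from 6.44 ± 0.41 to 4.95 ± 0.24 in ES2 (-0.35 ± 0.07, 0.0193) and from 4.38 ± 0.13 to 2.24 ± 0.50 in PANC1 (-0.85 ± 0.15, 0.00933). In MV3 it had -0.10 ± 0.06 (adjusted p = 0.225). The effect on IFNAR1 differed between lines (adjusted p = 0.000962). Its partner IFNAR2 rose in ES2, from 2.37 ± 0.32 to 3.62 ± 0.13 FPKM (0.53 ± 0.11, adjusted p = 0.0156), and had -0.47 ± 0.12 in A549 (adjusted p = 0.0537), 0.09 ± 0.07 in MV3 and -0.15 ± 0.14 in PANC1. This effect differed between lines as well (adjusted p = 0.000338).

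SOCS1, an inhibitor of the JAK kinases that is itself induced by interferon, was among the 2 highest changes of the list in 3 lines. It rose from 0.608 ± 0.037 to 2.63 ± 0.37 FPKM in ES2 (1.49 ± 0.15, adjusted p = 0.00125), in MV3 from 2.49 ± 0.40 to 4.85 ± 0.50 (0.84 ± 0.12, 0.00285) and in PANC1 from 1.06 ± 0.43 to 2.99 ± 0.55 (1.19 ± 0.25, 0.0173). In A549 it rested on 23 reads in the 6 libraries and had -1.04 ± 0.42 (adjusted p = 0.172). Its relative SOCS3 had the highest change of the list in A549, from 15.1 ± 0.78 to 23.6 ± 2.15 FPKM (0.63 ± 0.08, adjusted p = 0.00604), where JAK2 followed with 0.54 ± 0.13.

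The other genes at the ends of the list differed from line to line. MYD88, the adaptor of Toll-like receptors, had the lowest value of the list in A549, from 15.5 ± 1.69 to 5.42 ± 0.17 FPKM (-1.43 ± 0.10, adjusted p = 0.00086). In ES2 RTP4, a chaperone of receptors, rose by 1.32 ± 0.29. The helicase-like ZNFX1 fell in all 4 lines, by 0.49 ± 0.10 in A549, by 0.36 ± 0.04 in MV3, by 0.27 ± 0.06 in ES2 and by 0.23 ± 0.06 in PANC1. In MV3 SLFN5 rose from 1.23 ± 0.01 to 2.99 ± 0.29 FPKM (1.01 ± 0.09) and MB21D1, the DNA sensor cGAS, fell from 8.14 ± 0.18 to 5.31 ± 0.36 FPKM (-0.58 ± 0.06). In PANC1 TRAFD1, a brake on innate signalling, rose by 0.45 ± 0.08, and NMI, the partner of IFI35, fell by 0.73 ± 0.11.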

How the data were processed

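According to the submitters' processing notes and the methods, Cutadapt 1.14 was used for adapter removal, HISAT2 2.1.0 for alignment to hg38 and featureCounts 1.5.3 for counting, and the authors tested each line with edgeR 3.30.3. The deposited tables, 1 per line, hold FPKM per library, scaled by the authors with TMM within the line. The tables do not name this unit, and it was worked out from the values. Multiplied by gene length, 100% of values were whole reads (within 0.001 reads), which gave the depths. The length column of the deposited tables is in bases. The authors' comparison columns (log2 fold change of siI1 against siC, p-value and FDR) were not used.

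Samples were grouped by their labels into 8 groups of 3. The methods call the 3 libraries of a group biological replicates, and p-values measure the spread between them. The members and gene lists were chosen with earlier results of these data known. All 40 members are accounted for in each line. Values of each library are given for members past the threshold in at least 3 lines and for the 3 highest and 3 lowest fold changes past it per line. From the pathway list, the ligands and the 2 highest and 2 lowest changes past the threshold per line are named, and a further gene of the rule is not reported here. IFIT2 and IFIT3 in ES2, other members and IFNAR2 were added after their values were seen.

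Each line was tested with limma 3.58.1 (R 4.3.3, eBayes with trend, two-sided) on log2(FPKM + 0.5), over genes whose mean reached 0.5 FPKM in the 6 libraries, with Benjamini-Hochberg adjustment over these genes and a threshold of 0.05. A moderated F test over the 24 libraries, with an intercept per line, compared the knockdown effect between lines. The scripts were tested on simulated data. Planned count-model tests were not run, although reads could be recovered from the deposited FPKM. A limma voom fit on the recovered reads and a filter at a mean of 10 reads were added after the data were seen. Positions are from GENCODE release 44, promoters from RefSeq. Python 3.11.15, numpy 2.4.6, pandas 2.3.3 and matplotlib 3.10.9 were also used.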

Additional observations from a re-analysis of the deposited data

Results flagged for a closer look

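The following members had a knockdown effect that differed between the 4 lines in the moderated F test of limma, with the adjusted p given for each. The RNA sensors DDX58 (0.0127), IFIH1 (0.0257) and DDX60 (0.00216) differed, DDX58 from -0.87 in ES2 to -0.23 in MV3 with no line above 0. All 4 IFIT genes differed: IFIT1 (0.0107), IFIT2 (0.00019), IFIT3 (0.00563) and IFIT5 (0.0357), with IFIT2 from -0.80 in PANC1 to 0.74 in ES2. OAS3 (0.000688) ranged from -0.58 in MV3 to 0.24 in ES2. The transcription factors STAT2 (3.82e-06) and IRF1 (0.00200) differed, and so did IFITM1 (0.000259), IFITM2 (0.0303) and IFITM3 (0.00265). IFITM1 had -0.52 in A549 and 2.53 in ES2, where it entered the test only through its siI1 libraries and where the value was 2.02 with a pseudocount of 1 and 3.26 with 0.1. PARP9 (0.0021), PARP14 (4.37e-06), EIF2AK2 (0.00341) and SAMD9 (0.00307) complete the 17, with SAMD9 from 0.05 in A549 to 0.68 in ES2.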

How the results depend on the processing

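No call of a member reversed under any alternative run. Of the 41 calls over the 4 lines, all kept their side of the threshold with a pseudocount of 0.1 or 1, with limma voom and with a filter at 10 reads, the last 2 chosen after seeing the data. Without a filter 32 did, with equal sums of reads 38, with the replicate block 27, and in 179 of 246 cases when 1 library was left out. The number lower in A549 was 4, and 2 with the replicate block, 16 with voom, 8 with the filter at 10 reads and 0 to 3 when 1 library was left out; the number higher was 0, and 1 with voom or the filter at 10 reads. The number higher in ES2 was 16, and 12 with the replicate block, 17 with equal sums and 18 with voom or the filter at 10 reads. It was 13 to 15 when 1 library was left out. The members' median in ES2 was 0.42, and 0.60 with a pseudocount of 0.1 or with voom and 0.34 with a pseudocount of 1. The number lower in ES2 was 1, 3 with voom and 1 to 2 when 1 library was left out. In MV3 the number higher was 5 to 9 and the number lower 1 to 2 when 1 library was left out, and 1 was lower without a filter or with equal sums of reads. In PANC1 the number higher was 2 without a filter or with the replicate block, and 1 to 4 when 1 library was left out. The number lower there was 7 with equal sums of reads, voom or the filter at 10 reads, 2 with the replicate block, and 2 to 4 when 1 library was left out. The causes of these shifts were not tested, and the shares of all genes called in the alternative runs were not counted. Over all tested genes of a line, deviations of siC and siI1 libraries with the same number correlated at -0.06 to 0.07. This does not settle pairing for the members. In A549 the mean log2 level of the members relative to siC was lowest in replicate 2 of both groups, at -0.17 in siC and -0.56 in siI1. Pairing in the members alone was not tested. Depth was lowest in A549, and 1 tested member each in A549 and PANC1 had under 10 reads per library on average.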
